A study of Mus musculus with 6 samples.

Results

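The cytotoxic effector genes described here are 10 genes through which natural killer (NK) cells and cytotoxic T cells kill or signal: Gzma, Gzmb, Gzmk, Prf1, Nkg7, Eomes, Tbx21, Ncr1, Ccl5 and Ifng. Their open regions were the peaks with a summit in the gene body or within 3 kb of an annotated start of the gene, and they made up 18 of 62876 regions found in 6 libraries. ATAC-seq, which uses the Tn5 transposase to tag accessible DNA, was run on peripheral blood leukocytes of male C57BL/6J mice after red cell lysis. The study's text also speaks of mononuclear cells, a fraction from which neutrophils are mostly removed, and which of the names holds for these libraries was not settled. The mice were 8 weeks old when obtained. In the HADA (high-altitude de-acclimatization) group, 3 libraries came from mice that spent 28 days in a hypobaric chamber simulating an altitude of 6000 m and then returned to normoxia. In the control group, 3 libraries came from mice kept in normoxia. The time between return and blood collection for these libraries, and whether each library is 1 mouse, are not given in the sources used here, so p-values measure only the spread between these libraries, which may be technical. The cells were not sorted, and a region can differ because fewer or more cells of a type were present or because each cell's chromatin differed. These cannot be told apart.

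Cytotoxic lymphocytes store granzymes, which are proteases, with the pore-forming protein perforin in granules that are released onto a target cell. The T-box factors T-bet (Tbx21) and Eomes drive the expression of these genes, and the same cells secrete interferon gamma (Ifng) and the chemokine CCL5. In blood, the 10 genes are used mainly by NK cells and effector T cells, which are a minority of leukocytes.

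Each library was called by itself. The lists held 34045 to 41475 peaks for control and 44401, 44044 and 45799 for HADA, with the fewest in control 3. The genome-wide background pileup, a measure of relative depth, ran from 1.69 to 2.05 for control and from 1.99 to 2.34 for HADA. The measure used throughout is the summit pileup, which is the number of sequenced fragments stacked at the top of a peak (or of read ends, since the counting option of the peak caller is not given). It was compared between groups either as a ratio to the library's background pileup or as a log2 value relative to the median shared region, that is, the median of regions with a peak in all 6 libraries, here called centred. The median log2 difference of the shared regions, HADA minus control, was 0.34 over the background and −0.04 after centring, and centring lowered the difference of every shared region by the same amount.

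As a set, by their medians, the peaks at cytotoxic genes were weak. All 10 genes had a peak in at least 1 library, against 70.8% of 21757 protein-coding genes. A shared region was found at 5 of the 10 genes, Gzmk, Prf1, Nkg7, Tbx21 and Ccl5, against 57.3% of protein-coding genes. Within the control lists, the median cytotoxic gene peak stood at percentiles 35.9, 27.9 and 31.8 of all summit pileups. Within the HADA lists it stood at 39.7, 37.0 and 37.6. The tallest was 73 fragments, at Prf1 in HADA 3, where the median peak of the list had 35. The median shared region had 49 to 92 fragments depending on the library. The Prf1 peaks stood at percentiles 64.37, 56.85 and 35.65 of the control lists and 59.65, 63.92 and 69.54 of the HADA lists.

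Peaks at cytotoxic genes were counted next. The control lists held 9, 9 and 7 of the 18 regions and the HADA lists held 12, 11 and 14. The means were 8.33 ± 1.16 and 12.3 ± 1.53 (SD, n = 3 each), and every HADA library lay above every control library. Tbx21 alone had 1 peak in each control library and 3 in each HADA library. The number of cytotoxic genes with a peak was 8, 8 and 5 for control and 7, 7 and 9 for HADA, and the groups overlapped. Per 10000 peaks of the library, this was 2.14 ± 0.07 for control and 2.75 ± 0.28 for HADA. With the 34045 strongest peaks taken from each library, control had 6, 4 and 7 and HADA 6, 6 and 6 such peaks, and the groups overlapped. A peak was present in more HADA than control libraries at 10 of the 18 regions, in more control libraries at 2, and in equal numbers at the other 6. Over all regions, 35.5% had a peak in more HADA libraries and 22.7% in more control libraries.

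**Figure D1:**
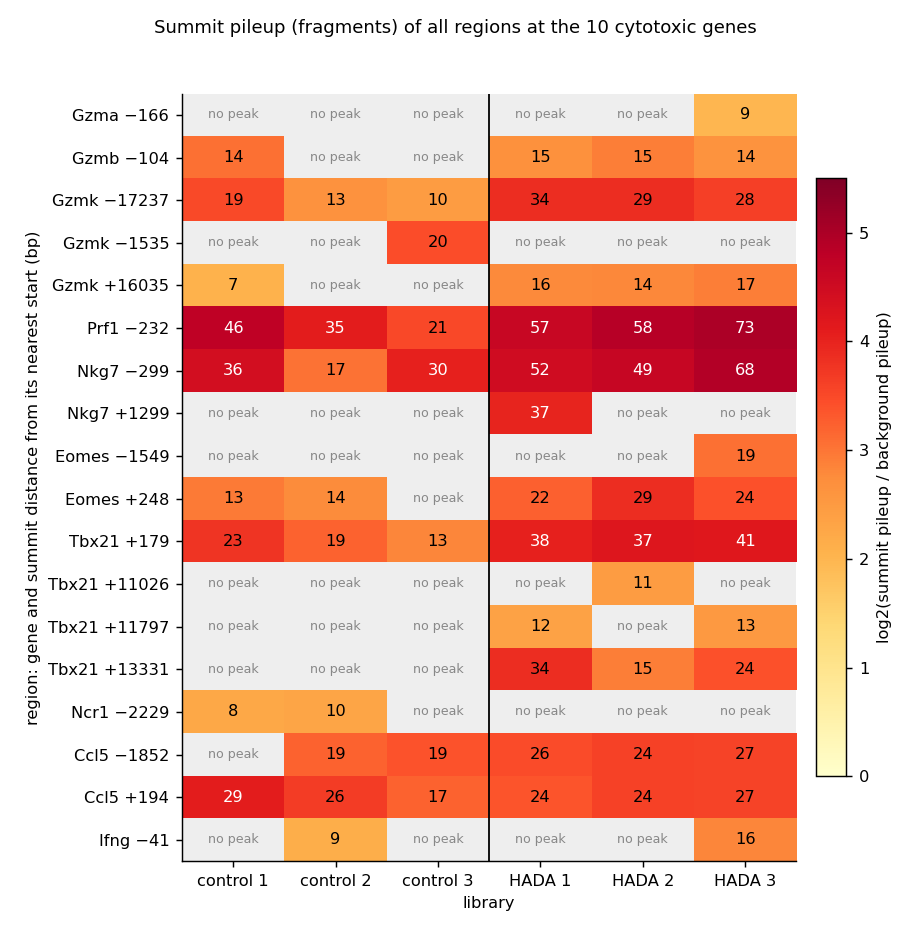
Summit pileup in fragments of the 18 regions at the 10 cytotoxic genes (rows, named by gene and by the distance in bp of the summit from its nearest annotated start) in each of the 6 libraries (columns), coloured by the log2 of pileup over the library's background, with grey cells where the list has no peak. Only 5 rows are filled in all libraries, and the Tbx21 row at +13331 is filled in all HADA and no control libraries.

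Of the 5 shared regions, 0 passed the test when pileups were centred on the median shared region (limma with Benjamini-Hochberg adjustment over 23970 shared regions). At an unadjusted p under 0.05 the count was also 0, beside 23.8% of all shared regions higher and 29.4% lower. By adjusted p, 18.4% of all shared regions were called higher and 24.5% lower in HADA. The median log2 difference of the 5 regions was 0.45, and 4 of them were above 0, beside a median of −0.04 over all shared regions. When pileups were divided by the background instead, 3 of the 5 were called higher (at Gzmk, Nkg7 and Tbx21) and 0 lower, where 32.2% of all shared regions were called higher and 17.6% lower. The deposited fold was also ranked within each library and the ranks turned into normal scores, whose differences are not log2 values. With this fold rank in place of the pileup, 0 of the 5 were called, beside 7.64% of all shared regions higher and 5.82% lower, and 1 had an unadjusted p under 0.05, beside 36.3%. The call of a rise at Gzmk, Nkg7 and Tbx21 therefore rests on the scaling. It also changed when 1 library was left out. Over the background 0 regions were called without control 2, HADA 1 or HADA 2, 1 without control 3 (Nkg7) or HADA 3 (Gzmk), and 4 without control 1 (Prf1 added). Fits with fewer libraries also have less power, and the calls over all regions were not counted for them on this scale. A pileup over background above every control library in every HADA library was found at the same 3 regions and at 42.6% of all shared regions. After centring, this held for 2 of the 5, at Gzmk and Tbx21, against 29.4% of all shared regions, and the opposite order held for 1, at Ccl5, against 31.2%.

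**Figure D2:**
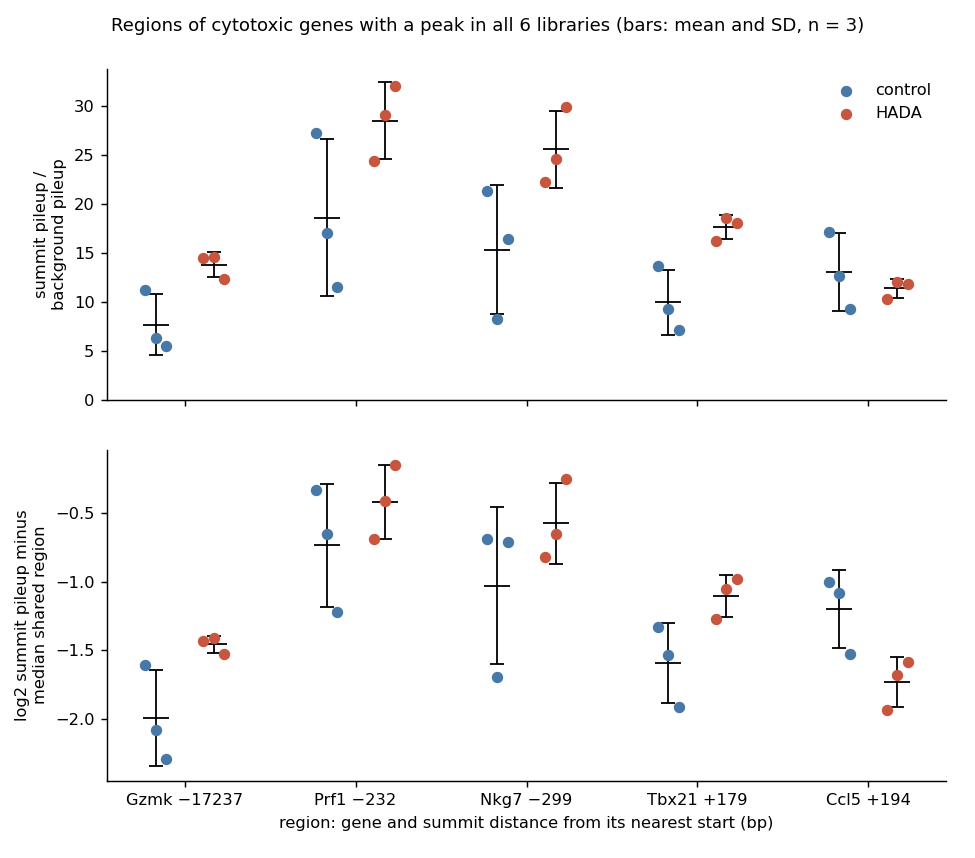
The 5 regions of cytotoxic genes with a peak in all libraries. Points are libraries, and bars are the mean and SD of 3 libraries, on the scale of pileup over background (top, linear) and of log2 pileup minus that of the median shared region (bottom). Control and HADA points are separate at Gzmk, Nkg7 and Tbx21 in the top panel, and at Gzmk, Tbx21 and Ccl5 in the bottom panel, where Ccl5 lies lower in HADA.

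Among the granule proteases, Gzmk had the only shared region. It covers chr13:113334169-113335198 (GRCm39) in an intron of a long annotated transcript of Gzmk, with its summit at −17237 bp from a start inside the gene (minus is upstream). Its summit pileup was 19, 13 and 10 for control and 34, 29 and 28 for HADA. Over the background and after centring all HADA values were above all control values, as at 42.6% and 29.4% of all shared regions. Divided by the background the pileups were 7.68 ± 3.12 and 13.8 ± 1.29 (SD, n = 3 each), with an exact permutation p of 0.1 (two-sided), the lowest value possible in a design of this size. The log2 difference was 0.54 ± 0.26 (SE) after centring (95% interval −0.06 to 1.13, limma adjusted p = 0.123) and 0.91 ± 0.33 over the background (adjusted p = 0.0162). Without control 1 the centred difference was 0.74 with an adjusted p of 0.0472, and without control 3 it was 0.34 with an adjusted p of 0.336.

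A second Gzmk region lay in an intron 16035 bp into the gene from its outermost start, also within 3 kb of a start of Esm1, a gene expressed in endothelium. It had 7 fragments in control 1 and 16, 14 and 17 in the HADA libraries, and no peak in the other control libraries. Another, at −1535 bp from the outermost start, had 20 fragments in control 3 and no peak in any other library. At Gzmk, 2 of the 3 regions were therefore found in more or taller peaks in HADA lists and 1 in a control list alone.

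Gzmb, which encodes granzyme B, the protease that cleaves caspases in target cells, had 1 region. It covers chr14:56499505-56500118, with its summit at −104 bp from the start. The summit pileup was 14 in control 1 and 15, 15 and 14 in the HADA libraries, with no peak in control 2 and control 3. Over the background the control 1 peak, at 8.29, was above the HADA peaks, at 6.41, 7.53 and 6.16, so more HADA lists held the region but none held it at a greater height on that scale. Gzma, which encodes granzyme A, had 1 region, at −166 bp, with 9 fragments in HADA 3 and no peak in the other 5 libraries. A value of 9 is next to the smallest summit pileup in that list, which was 8.

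Gzmk −17237 was the only shared region of Gzma, Gzmb and Gzmk, and Gzmb had no region besides its own at −104. The sequences around these summits are shown, and were chosen after their values were seen. They cover 50 bp on either side of the summit on the plus strand of GRCm39 (Gzmb chr14:56499771-56499871, Gzmk chr13:113334642-113334742). Capitals in Gzmb mark TGTGGTT on the minus strand, a core bound by RUNX factors, followed by TGANTCA, the AP-1 site. Gzmk held none of the 4 motifs searched.
Gzmb −104: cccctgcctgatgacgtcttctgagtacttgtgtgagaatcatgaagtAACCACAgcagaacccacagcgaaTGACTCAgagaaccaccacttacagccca
Gzmk −17237: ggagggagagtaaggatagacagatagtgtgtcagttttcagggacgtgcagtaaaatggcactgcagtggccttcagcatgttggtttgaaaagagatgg

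Prf1 encodes perforin. Its region covers chr10:61132510-61133882, with its summit at −232 bp, and held the tallest peaks of any cytotoxic gene in 5 of the 6 libraries. The summit pileup was 46, 35 and 21 for control and 57, 58 and 73 for HADA. Over the background control 1 (27.2) lay above HADA 1 (24.4), and the groups also overlapped after centring. The log2 difference was 0.32 ± 0.27 after centring (95% interval −0.29 to 0.93, adjusted p = 0.360) and 0.70 ± 0.32 over the background (adjusted p = 0.0597). Without control 3, the centred difference was 0.03.

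Nkg7 encodes a membrane protein of cytotoxic granules. Its start region covers chr7:43085860-43087015, with its summit at −299 bp, and also lies within 3 kb of a start of Cldnd2, so its peaks cannot be given to Nkg7 alone. The summit pileup was 36, 17 and 30 for control and 52, 49 and 68 for HADA. Over the background the means were 15.3 ± 6.59 and 25.6 ± 3.93 (SD, n = 3 each). The groups were apart on that scale, as at 42.6% of all shared regions, and overlapped after centring. The log2 difference was 0.45 ± 0.31 after centring (95% interval −0.25 to 1.16, adjusted p = 0.259), and 0.83 ± 0.33 over the background (adjusted p = 0.0264). Control 2 was the low library here, and without it the centred difference was 0.13. A second region, 1299 bp downstream of a start and beyond the gene's end, had 37 fragments in HADA 1 and no peak elsewhere.

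The windows of Prf1 (chr10:61133264-61133364) and Nkg7 (chr7:43086148-43086248) show the granule genes whose start regions were found in all libraries, and were also chosen after their values were seen. Capitals in Nkg7 mark the RUNX core, TGTGGTT on the minus strand. Nkg7 was the only cytotoxic gene region with the T-box core GGTGTGA within 100 bp of its summit, outside the window shown.
Prf1 −232: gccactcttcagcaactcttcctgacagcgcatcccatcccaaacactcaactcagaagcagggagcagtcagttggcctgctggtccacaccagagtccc
Nkg7 −299: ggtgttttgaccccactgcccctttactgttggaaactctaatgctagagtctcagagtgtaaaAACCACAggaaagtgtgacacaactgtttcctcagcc

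Tbx21, which encodes T-bet, had 4 regions, the most of any cytotoxic gene, and 3 of them were found in HADA lists alone, as were 21.1% of all regions. The start region covers chr11:97005418-97007024, with its summit 179 bp downstream of the start in an untranslated part of an exon, and also lies at the noncoding gene Gm11572. Its summit pileup was 23, 19 and 13 for control and 38, 37 and 41 for HADA. Every HADA library lay above every control library over the background and after centring, as at 42.6% and 29.4% of all shared regions. Over the background the means were 9.99 ± 3.32 and 17.6 ± 1.23 (SD, n = 3 each). The log2 difference was 0.49 ± 0.25 after centring (95% interval −0.07 to 1.05, adjusted p = 0.135) and 0.87 ± 0.33 over the background (adjusted p = 0.0228). Without control 3 the centred difference was 0.28 (adjusted p = 0.361).

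The region at +13331 bp of Tbx21, in a coding exon, was the only cytotoxic gene region with a peak in 3 of 3 HADA and 0 of 3 control libraries. It covers chr11:96992499-96993049, and its summit pileup was 34, 15 and 24 in the HADA libraries. Regions of this kind made up 7.01% of all regions, and the reverse kind, in 3 of 3 control and 0 of 3 HADA libraries, 1.88%. Both numbers of regions grew with any 1 library left out, since fewer lists then had to lack a peak or hold one. At cytotoxic genes the reverse count was 0 of 18. With the 34045 strongest peaks of each library the region was no longer found in all HADA libraries, and the HADA-only count was 0. A region without a peak has no deposited value, and the smallest summit pileups in the control lists were 7 and 8, but peaks were called against the local background, so a larger signal than these could also go uncalled. In the same part of the gene, an intronic region at +11797 bp had 12 and 13 fragments in HADA 1 and HADA 3, and another at +11026 bp had 11 in HADA 2. None of the control lists had a peak in these introns.

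The bases around the summit of this HADA-only region (chr11:96992777-96992877) are coding sequence of Tbx21, which lies on the minus strand, and are given on the plus strand. None of the 4 motifs was found within 100 bp of the summit.
Tbx21 +13331: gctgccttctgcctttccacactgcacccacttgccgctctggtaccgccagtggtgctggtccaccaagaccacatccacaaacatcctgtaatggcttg

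Eomes had 2 regions. The larger covers chr9:118306858-118308534, with its summit in a coding exon 248 bp downstream of a start, and had 13 and 14 fragments in control 1 and control 2, no peak in control 3, and 22, 29 and 24 fragments in the HADA libraries. These values are unscaled. After centring on the regions shared by all 6 libraries, HADA 1 lay below control 2, so the groups overlapped. Among the 5 libraries with a peak, the centred log2 difference was 0.27 ± 0.30 (95% interval −0.39 to 0.93, adjusted p = 0.484 by limma without control 3). A region at −1549 bp had 19 fragments in HADA 3 alone. Both lie within 3 kb of a start of the noncoding gene Gm33408.

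Ncr1 encodes NKp46, an activating receptor of NK cells. It was the only cytotoxic gene with a region in more control than HADA libraries and no HADA peak at all. Its region at −2229 bp (chr7:4337652-4338898) had 8 and 10 fragments in control 1 and control 2. The smallest pileups in those lists were 7 and 8. The 50 bases at the summit have 60 exact copies in the genome, so reads there cannot be placed with confidence. Among regions taken up by the start window alone, this one lay farthest from a start. The closest upstream region left out by the 3 kb limit, at −9435 bp of Ccl5, had 17 and 11 fragments in control 1 and control 3 and 12 in HADA 3. The closest downstream one, 1580 bp past the end of Prf1, had 23, 25 and 18 for control and 28, 42 and 43 for HADA.

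Ccl5, the chemokine that draws T cells and monocytes, was the only cytotoxic gene with a shared region whose difference was below 0. The region covers chr11:83425210-83426152, with its summit in an intron 194 bp downstream of a start, and the noncoding gene Gm73716 shares it. Its summit pileup was 29, 26 and 17 for control and 24, 24 and 27 for HADA. The unscaled groups overlapped, with an exact permutation p of 0.9 (two-sided). The log2 difference was −0.53 ± 0.25 after centring (95% interval −1.10 to 0.04, adjusted p = 0.113) and −0.15 ± 0.33 over the background (95% interval −0.81 to 0.50, adjusted p = 0.709). Without control 3 the centred difference was −0.75 with an adjusted p of 0.0323. The second Ccl5 region, at −1852 bp, had 19 and 19 fragments in control 2 and control 3, no peak in control 1, and 26, 24 and 27 in the HADA libraries. Its centred difference among the libraries with a peak was −0.24 ± 0.25 (adjusted p = 0.466 by limma without control 1).

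The Ccl5 window (chr11:83425698-83425798) is shown, again chosen after its values were seen, because this region ran against the other 4. It held none of the 4 motifs.
Ccl5 +194: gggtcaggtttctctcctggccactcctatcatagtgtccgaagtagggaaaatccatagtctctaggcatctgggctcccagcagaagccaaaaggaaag

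At the start of Ifng, the region at −41 bp (chr10:118276566-118277072) had 9 fragments in control 2 and 16 in HADA 3 and no peak in the other 4 libraries. Neither group had it in more than 1 list.

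Of the 5 shared regions, the order by mean pileup over background in HADA libraries was Prf1 (28.5 ± 3.91), Nkg7 (25.6 ± 3.93), Tbx21 (17.6 ± 1.23), Gzmk (13.8 ± 1.29) and Ccl5 (11.4 ± 0.99). Prf1 and Nkg7 did not differ beyond their spread. In control libraries the order was Prf1 (18.59 ± 7.998), Nkg7 (15.3 ± 6.59), Ccl5 (13.04 ± 3.96), Tbx21 (9.99 ± 3.32) and Gzmk (7.68 ± 3.12), and neighbours in this order lay within 1 SD of each other. Ccl5 thus stood above Tbx21 and Gzmk in the control order and below both in HADA.

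Regions outside the rule but within 50 kb of a cytotoxic gene were then examined, since enhancers of these genes can lie at a distance. There were 36 such regions, of which 13 were shared. After centring, 4 of the 13 were called higher and 1 lower in HADA, beside 18.4% and 24.5% of all shared regions. Of the 36, 4 were HADA-only and 2 control-only, beside 7.01% and 1.88% of all regions. A region's place near a gene does not show that it acts on that gene.

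Of the 4 that rose, 2 lay around Ifng, where conserved elements on either side of the gene are known enhancers in T cells and NK cells. The region at −21808 bp (chr10:118254581-118255478) had 93, 75 and 92 fragments for control and 250, 205 and 179 for HADA, far above the start of Ifng itself. Its centred log2 difference was 0.65 ± 0.17 (adjusted p = 0.0163), and it was 1.03 over the background. The adjusted p was 0.0700 without HADA 1 and 0.0710 without HADA 2. The region at +28095 bp (chr10:118304743-118305470), in the noncoding gene Gm67102, had 28, 24 and 16 fragments for control, 80 in HADA 3, 96 in HADA 2 and its highest value in HADA 1. Its centred difference was 1.43 ± 0.23 (adjusted p = 0.00628).

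Farther along Gm67102, the regions at +36354 and +39984 bp were HADA-only. The former had 27, 17 and 17 fragments and the latter 22, 28 and 19. In contrast, the shared regions at −33970 and +29631 bp of Ifng had centred differences of −0.03 and −0.03 (adjusted p of 0.932 and 0.942).

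The windows of the 2 called Ifng regions are shown, chosen after their values were seen, because they rose where the start of Ifng had few peaks (chr10:118255093-118255193 and chr10:118304997-118305097). Neither has a motif inside the bases shown, and the ETS core lay farther from the summit at −21808.
Ifng −21808: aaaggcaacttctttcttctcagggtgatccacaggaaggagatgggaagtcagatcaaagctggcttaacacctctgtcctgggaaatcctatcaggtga
Ifng +28095: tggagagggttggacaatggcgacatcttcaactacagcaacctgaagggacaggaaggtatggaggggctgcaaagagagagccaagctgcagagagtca

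**Figure D3:**
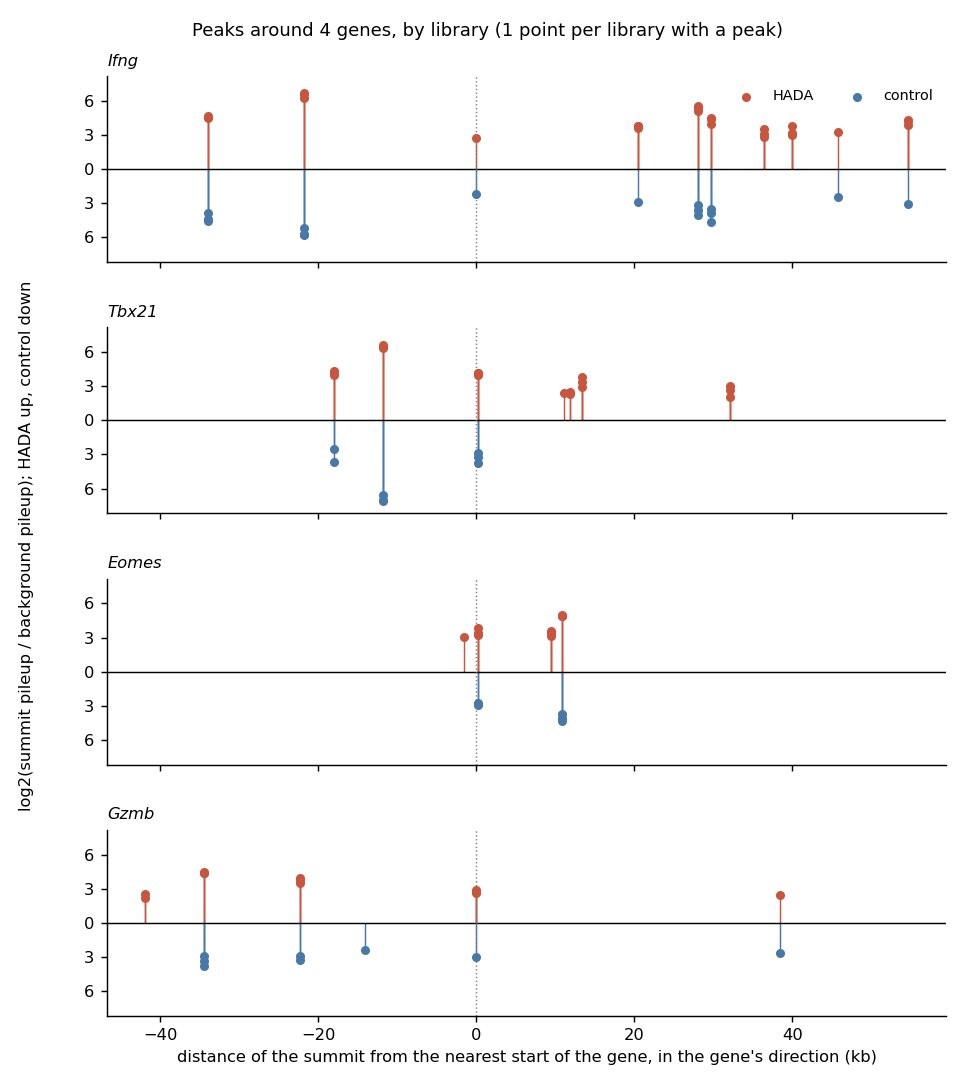
Peaks in and around Ifng, Tbx21, Eomes and Gzmb by distance in kb of the summit from the nearest start of the gene, with HADA libraries drawn upward and control libraries downward as log2 of pileup over background, 1 point for each library with a peak. Points upward with none below mark HADA-only regions, such as those at +36354 and +39984 bp of Ifng, and the start of Ifng has 1 point on each side.

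Upstream of Gzmb, the region at −34499 bp (chr14:56533510-56535077) had 24, 21 and 14 fragments for control and 49, 44 and 47 for HADA. Its centred difference of 0.66 ± 0.23 had an adjusted p of 0.0483, and the call was lost without any 1 library except control 1, the adjusted p then running from 0.0535 to 0.140. The call was also lost with pileups scaled to the lowest background (limma adjusted p = 0.0511) and with summits joined within 250 bp (0.0554). Near Eomes, the region at +9472 bp was HADA-only with 21, 21 and 27 fragments. Its neighbour at +10866 bp had 34, 35 and 25 fragments for control and 69, 62 and 69 for HADA, with a centred difference of 0.48 ± 0.20 (adjusted p = 0.0767) and one of 0.86 over the background (adjusted p = 0.0203).

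Other called regions stood closer to other genes. The region at −44324 bp of Nkg7 (1.55 ± 0.30, adjusted p = 0.00719) is nearest to Siglecg, a B cell inhibitory receptor, and had 82, 69 and 29 fragments in the control libraries against 264, 259 and 222. The region at −11863 bp of Tbx21 (−0.77 ± 0.17, adjusted p = 0.00989) is nearest to Tbkbp1, and over the background it was −0.39 with an adjusted p of 0.185. Both calls were lost with the fold rank. The HADA-only region at +32093 bp of Tbx21 is nearest to Osbpl7. Around Ncr1, the regions at −44768 and −27879 bp were control-only, with 15, 25 and 21 and with 19, 11 and 22 fragments.

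**Figure D4:**
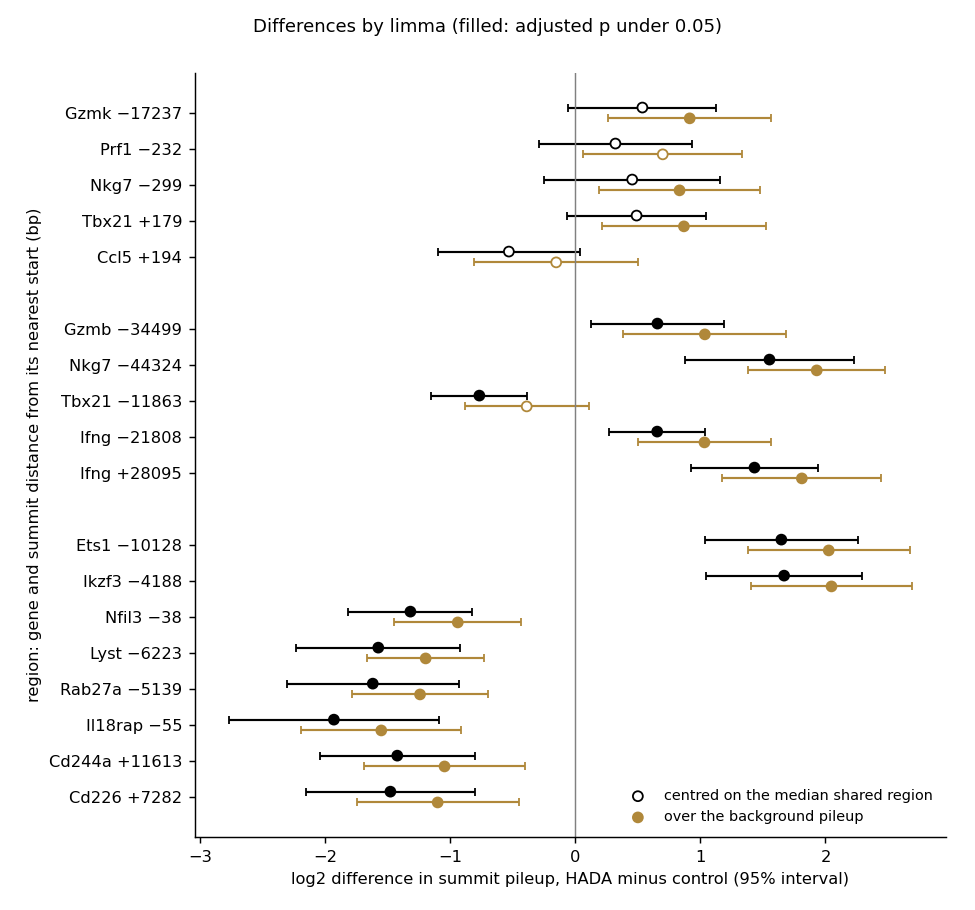
Log2 difference in summit pileup, HADA minus control, with 95% intervals from limma, for the 5 shared regions of cytotoxic genes (top), the called regions within 50 kb (middle) and the named pathway regions (bottom). Black is after centring on the median shared region and brown is over the background pileup, and filled points passed an adjusted p of 0.05. All 5 black points of the top group are open and 3 of its brown points are filled.

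Other genes of the granule and cytotoxic cell pathway were taken from lists of 52 genes, at which 192 regions were found and 75 were shared. Of the 75, 19 were called higher and 19 lower in HADA after centring, beside 18.4% and 24.5% of all shared regions, with a median log2 difference of 0.20. Over the background 29 were higher and 13 lower, beside 32.2% and 17.6%, and with the fold rank 4 were higher and 2 lower, beside 7.64% and 5.82%. Among all 192 regions, 20 were HADA-only and 4 control-only, beside 7.01% and 1.88% of all regions. The counts differed from list to list, which was not tested. Factors of cytotoxic cells had 13 of 33 shared regions higher and 3 lower (21 and 2 over the background), with 8 of the 13 at Ets1, 2 each at Tox and Ikzf3 and 1 at Stat4, while receptors had 0 of 14 higher and 6 lower (1 and 6 over the background). Genes of granule release had 1 of 14 higher and 6 lower (1 and 4 over the background), and genes of granule processing and packing had 4 of 9 higher and 2 lower (5 and 1 over the background). The death ligands had 1 shared region, at Tnfsf10, which was higher (0.73 ± 0.21, adjusted p = 0.0226), and chemokines and cytokines had 0 of 3 higher and 2 lower (0 and 0 over the background). Of 7 further granzyme genes, only Gzmm had a peak in any library, with a centred difference of −0.74 ± 0.36 (adjusted p = 0.123), and Gzmc, Gzmd, Gzme, Gzmf, Gzmg and Gzmn had none.

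The named factor regions that rose stood at Ets1 and Ikzf3, which are used by B and T cells as well. The Ets1 region at −10128 bp had 22, 19 and 10 fragments for control and 91, 70 and 74 for HADA (1.65 ± 0.27, adjusted p = 0.00628). The Ikzf3 region at −4188 bp had 26, 21 and 11 against 97, 87 and 84 (1.67 ± 0.28, adjusted p = 0.00629). Both regions were picked by their limma p, so the distance between the groups in them adds no support. With the fold rank the Ikzf3 call was lost (0.63 in normal scores, adjusted p = 0.0746), while that at Ets1 had an adjusted p of 0.0433.

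The named regions that fell include genes of myeloid cells too. Nfil3, a factor needed for NK cell development, had 224, 186 and 300 fragments at its start for control and 179, 123 and 134 for HADA (−1.32 ± 0.22, adjusted p = 0.00629). Lyst, a regulator of lysosome-related granules, had 412, 319 and 596 against 339, 189 and 169 at −6223 bp (−1.58 ± 0.29). Rab27a, which docks granules at the membrane, had 154, 129 and 255 against 117, 60 and 91 at −5139 bp (−1.62 ± 0.31). For these 3 genes every HADA library lay below every control library after centring, as at 31.2% of all shared regions. The regions were picked by their limma p, so this order adds no support. For Lyst the unscaled pileup of HADA 1 lay within the control range. With the fold rank in place of the pileup the differences were −0.13, −0.24 and −0.34 in normal scores, which are not log2 units, and the 3 calls were lost.

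Among the receptors, Il18rap, a chain of the interleukin 18 receptor, had 48, 48 and 111 fragments at its start for control and 32, 24 and 22 for HADA (−1.93 ± 0.37, adjusted p = 0.00719). With the fold rank in place of the pileup, its difference was 0.10 in normal scores and its adjusted p 0.768. Cd244a had 19, 19 and 23 against 11, 13 and 11 at +11613 bp (−1.43 ± 0.28), and Cd226 had 20, 34 and 19 against 12, 14 and 13 at +7282 bp (−1.48 ± 0.30). The Cd244a call was lost with the fold rank (−0.41 in normal scores, adjusted p = 0.197). Ccl3 and Ccl4, chemokines of the same secretory programme as Ccl5 that myeloid cells also make, had start regions with differences of −0.88 ± 0.24 (adjusted p = 0.0176) and −0.71 ± 0.23 (adjusted p = 0.0365), and both calls were lost over the background.

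Markers of the blood cell types were counted on the same scale, each list by its summed pileup over background, and regions were called after centring. Over all shared regions, 18.4% were called higher and 24.5% lower after centring, and 32.2% and 17.6% over the background. Of 10 NK cell markers, 6 had a peak in some library, and Klrk1, Klra8, Klra9 and Klri2 had none. The summed level of the NK list ran from 87.6 to 122 in control libraries, and in HADA it was 90.2 to 102. A peak was found at 3 to 4 of the NK markers in control libraries and at 5 to 6 in HADA libraries. Of 14 NK marker regions, 2 were HADA-only, at Klrb1c and Il2rb, and 0 control-only, beside 7.01% and 1.88% of all regions. At T cell markers 5 of 48 regions were HADA-only, and at B cell markers 10 of 52. Of its 4 shared regions, 0 were called higher and 1 lower, at Fcer1g (−2.01 ± 0.27, adjusted p = 0.00628), which myeloid cells express too. The T cell list reached 308 to 435 for control and 540 to 615 for HADA, with 6 of 20 shared regions higher and 0 lower (11 and 0 over the background). At Cd8b1, a marker of the cytotoxic T cell lineage, the shared region had a difference of −0.13 ± 0.24 (adjusted p = 0.686), and Cd8a had no shared region.

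The other lists were counted in the same way. B cell markers reached 51.9 to 302 for control and 642 to 698 for HADA, with 8 of 8 shared regions higher. Neutrophil markers reached 203 to 498 for control and 91.0 to 166 for HADA, with 8 of 8 shared regions lower, and monocyte markers had 1 of 11 higher and 7 lower. Over the background, 2 of the monocyte regions and 6 of the neutrophil regions were lower. Their part in the differences at cytotoxic genes was not tested. Markers of erythroid cells and platelets had 2 of 3 shared regions higher, those of eosinophils and basophils 1 of 3 higher and 1 lower (1 and 0 over the background), general leukocyte genes 4 of 33 higher and 10 lower (8 and 6 over the background), and markers of other tissues 0 of 1 in either direction (1 higher over the background).

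Motif letters were counted within 100 bp of each summit on both strands. The T-box core GGTGTGA was found at 1 of the 18 cytotoxic gene regions and at 2.96% of all regions, and the RUNX core TGTGGTT at 2 of 18 (Gzmb and Nkg7) and 7.12%. The AP-1 site TGANTCA was found at 4 of 18 (Gzma, Gzmb, Tbx21 +11026 and Ccl5 −1852) and 5.66%, and the ETS core CGGAAG at 0 of 18 and 9.43%. The regions with an AP-1 match were not those with the tallest peaks, and the 5 shared regions had none.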

How the data were processed

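ATAC-seq peak lists of peripheral blood leukocytes were analysed for 3 control and 3 HADA libraries, grouped by the labels. Reads were trimmed (Trimmomatic), aligned to GRCm39 (Bowtie2), cleared of duplicates (Picard) and called for peaks (MACS2) by the authors, without pooling. Versions, options and any Tn5 shift are not given in the sources used here. The deposited lists give for each peak its score, its fold enrichment, the −log10 of its p-value and q-value, and its summit offset. Deposited p-values and q-values hold for the list they come from.

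The whole-number summit pileup and the local background were solved from the deposited fold and −log10 p, which returned both values within 0.0001 for 100% of peaks. Peaks on 21 chromosomes that shared 1 bp were merged into regions, and a region's pileup was that of its tallest peak. Shared regions were tested with limma 3.58.1 (R 4.3.3, variance trend, no covariates) on centred log2 pileups, with Benjamini-Hochberg adjustment over all of them at 0.05. The script was tested on simulated data. Single values were compared by an exact permutation test, with Python 3.11.15, scipy 1.17.1 and matplotlib 3.10.9. Starts and gene bodies came from the GENCODE annotation of GRCm39. Motifs were searched within 100 bp of a summit.

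Named were all cytotoxic genes, with the start region of each and any called or group-only region, called or group-only regions within 50 kb, and the 8 pathway genes with the smallest limma p. Other regions and the windows said so were chosen after their values were seen. The cytotoxic genes and all lists were chosen with earlier results of these data known. Vamp7 of the pathway lists was not matched. The alternatives tried were other scalings, peak strength measures, variance models, calling limits, peak numbers, merging rules and start windows, a replicate block, and leaving out each library, which was also done over the background after the data were seen.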

Additional observations from a re-analysis of the deposited data

How the results depend on the processing

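Leaving out 1 library moved the number of cytotoxic gene regions called higher between 0 and 1 (Gzmk, without control 1), called lower between 0 and 1 (Ccl5 +194, without control 3), HADA-only between 1 and 3 (Gzmk +16035 and Gzmb −104 added without control 1, Tbx21 +11797 added without HADA 2), and control-only between 0 and 1 (Ncr1, without control 3). Over the background, 3 regions were called higher, and leaving out 1 library moved this between 0 and 4, an alternative chosen after seeing the data. With a −log10 q of at least 5, 3 regions were HADA-only (Gzmk +16035 and Eomes +248 added). With the same number of strongest peaks in each library, 0 were HADA-only and 1 was control-only (Ccl5 +194), and the difference in peaks per library fell from 4 to 0.333. In the other 59 comparisons of these counts with an alternative, the count stayed within 1.5 times, or the difference within 1 SD, of its main value. The replicate numbers did not pair the libraries (correlations of deviations −0.08, 0.08 and −0.38), and with the replicate block 0 cytotoxic gene regions were called, 3330 of all regions were higher and 5757 lower, and the only named call lost was Gzmb −34499 (adjusted p = 0.105).

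For single regions, the sole reversal was Il18rap with the fold rank (0.10 in normal scores). With the fold rank the calls at Gzmb −34499, Nkg7 −44324, Tbx21 −11863, Ikzf3, Nfil3, Lyst, Rab27a and Cd244a were also lost. Over all regions, 4417 were higher and 5862 lower. Leaving out HADA 1, HADA 2 or HADA 3 gave 2295, 1379 and 2036 higher, and without HADA 2 there were 2946 lower. The fold rank gave 1832 higher and 1396 lower, and division by the background 7710 higher and 4216 lower, which moved the share of calls that were higher from 43.0% to 64.7%. Leaving out 1 library moved the HADA-only regions from 4405 to between 4629 and 7165 (without control 1), and the control-only regions from 1181 to between 1432 and 2235 (without control 3). The control-only regions were also above 1.5 times their number without control 1 (1796), control 2 (1776) or HADA 1 (1837), and with equal peak numbers (2272). With 1 library left out, fewer lists have to lack a peak or hold one. Other causes of these moves were not tested. Depth limits weak peaks, and since peaks were called against the local background, a region absent from a list has no fixed upper limit on its fragments.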
